A study of Homo sapiens with 15 samples.

Results

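The 8 genes described here are 6 metallothioneins (MT2A, MT1A, MT1E, MT1F, MT1G and MT1X), the zinc-sensing transcription factor MTF1 and the zinc exporter SLC30A1, taken by symbol from the 26364 gene entries of the deposited expression table. All 8 were in the table, and all 8 averaged 1 TPM (transcript abundance per gene length, scaled to the same total in each library) or more over the 15 libraries, which 12002 genes did and which was the condition for a test. The libraries came from RPMI-8226, an established human multiple myeloma line labelled wild type and kept in RPMI 1640 with added fetal bovine serum. The 5 groups of 3 libraries were cells given DMSO, the solvent, labelled as the 0 h control, and cells given 100 nM KB528, a p300 lysine acetyltransferase inhibitor, for 1, 3, 6 or 24 h. The control columns of the table are headed as untreated at 0 h, whereas the sample labels name DMSO. The series title names p300 catalytic inhibition and the activity of the transcription factor IRF4 in myeloma.

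Metallothioneins are very small proteins in which many cysteines bind zinc, copper and cadmium, so that they buffer the free metal in a cell. MTF1 is a zinc finger protein that binds DNA when free zinc rises, at short sequences called metal response elements, and the metallothionein genes and SLC30A1 are its textbook targets. SLC30A1, also named ZnT1, sits in the plasma membrane and moves zinc out of the cell. The metallothionein genes lie side by side on chromosome 16.

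The coding starts are shown because the 6 genes are close paralogs, which bears on how far reads can be assigned to each of them. The first 90 coding bases of MT2A and of MT1G and MT1X, whose levels are the highest among the 6, read 5′ to 3′ from the GENCODE transcripts, are printed with capitals where a base differs from MT2A.
MT2A: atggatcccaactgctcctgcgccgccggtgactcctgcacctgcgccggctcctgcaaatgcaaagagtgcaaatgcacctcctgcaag
MT1G: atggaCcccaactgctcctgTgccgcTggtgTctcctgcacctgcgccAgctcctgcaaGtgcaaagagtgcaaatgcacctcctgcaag
MT1X: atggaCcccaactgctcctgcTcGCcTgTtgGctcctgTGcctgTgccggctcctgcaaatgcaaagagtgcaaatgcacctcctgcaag

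Over the whole coding sequence of 186 bases, the 15 pairs among the 6 genes were 88.7 to 95.2% identical, with a median of 92.5%. Outside the coding sequence the transcripts differ more. Of all stretches of 50 bases in each gene's transcript, 95.1% for MT2A, 94.2% for MT1A, 94.7% for MT1E and 96.4% for MT1F were found in no other annotated gene. The share was 79.8% for MT1G and 54.9% for MT1X. The annotated transcripts of MT2A, MT1E, MT1F and MT1X used for this had 786, 704, 690 and 450 bases. The lengths behind the TPM were shorter, at 419, 506, 483 and 404 bases, so the shares of these genes include sequence that was not counted. For MT1G the lengths were 406 and 405 bases. MT1X shared most of its repeated stretches, 117 of 401, with an annotated gene named AC026461.1, for which no values were used here. MT1G and MT1X levels are therefore less certain than the others, since reads from shared stretches could be assigned to a paralog or dropped.

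The promoter windows of 3 genes are shown because they hold cores of the metal response element. RefSeq windows on GRCh38.p14, 250 bases before to 50 after the start, were at hand for 4 of the 8 genes: MT2A, MT1X, MTF1 and SLC30A1. Capitals mark the cores, searched as TGCACNC and TGCGCNC on both strands. The windows lie at chr16:56608334-56608633 on the plus strand for MT2A, chr16:56682220-56682519 on the plus strand for MT1X and chr1:211579112-211579411 on the minus strand for SLC30A1, each printed 5′ to 3′ on the gene's strand.
MT2A: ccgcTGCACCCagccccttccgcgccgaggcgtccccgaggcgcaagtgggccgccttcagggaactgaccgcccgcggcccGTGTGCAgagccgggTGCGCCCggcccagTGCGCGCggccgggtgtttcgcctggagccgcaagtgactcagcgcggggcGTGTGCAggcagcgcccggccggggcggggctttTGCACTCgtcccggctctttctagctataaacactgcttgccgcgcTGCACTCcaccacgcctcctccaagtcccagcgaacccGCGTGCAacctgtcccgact
MT1X: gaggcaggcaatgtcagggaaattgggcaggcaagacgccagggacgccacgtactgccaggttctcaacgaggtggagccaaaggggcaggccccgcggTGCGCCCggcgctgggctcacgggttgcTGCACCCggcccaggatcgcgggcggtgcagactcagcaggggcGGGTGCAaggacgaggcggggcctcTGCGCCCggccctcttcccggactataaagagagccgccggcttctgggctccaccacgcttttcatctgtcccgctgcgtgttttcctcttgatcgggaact
SLC30A1: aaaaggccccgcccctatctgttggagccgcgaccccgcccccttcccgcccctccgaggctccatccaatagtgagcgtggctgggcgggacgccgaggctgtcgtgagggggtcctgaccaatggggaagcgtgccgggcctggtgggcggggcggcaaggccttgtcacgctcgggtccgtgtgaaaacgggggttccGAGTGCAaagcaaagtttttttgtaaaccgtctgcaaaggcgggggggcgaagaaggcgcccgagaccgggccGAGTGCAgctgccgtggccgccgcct

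The MT2A window held 8 cores, a number reached by 0.02% of the 35116 RefSeq windows of that length. MT1X held 4 cores, reached by 0.601% of windows, and SLC30A1 held 2, reached by 8.6%. In the window of MTF1 itself no match was found, whereas 29.6% of all windows, and 37.8% of those of tested genes, held at least 1. These matches describe letters in a window and were not measured as binding sites in these cells.

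In the DMSO libraries, on the TPM scale, which is per transcript length, MT1X was the most abundant of the 8 genes at 100.4 ± 8.55 TPM (SD, n = 3), rank 1528 of the 12002 tested genes. MT1G followed at 64.5 ± 4.23 TPM and MT2A at 34.95 ± 2.69 TPM. SLC30A1 and MT1A came next at 27.7 ± 4.72 and 24.4 ± 2.86 TPM, and their libraries overlapped. MT1E, MTF1 and MT1F were the lowest at 8.53 ± 1.48, 6.59 ± 0.886 and 5.76 ± 1.03 TPM. The libraries of MT1E overlapped those of MTF1, and the libraries of MTF1 overlapped those of MT1F. Each other step of this order lay between groups of libraries that did not overlap.

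**Figure D1:**
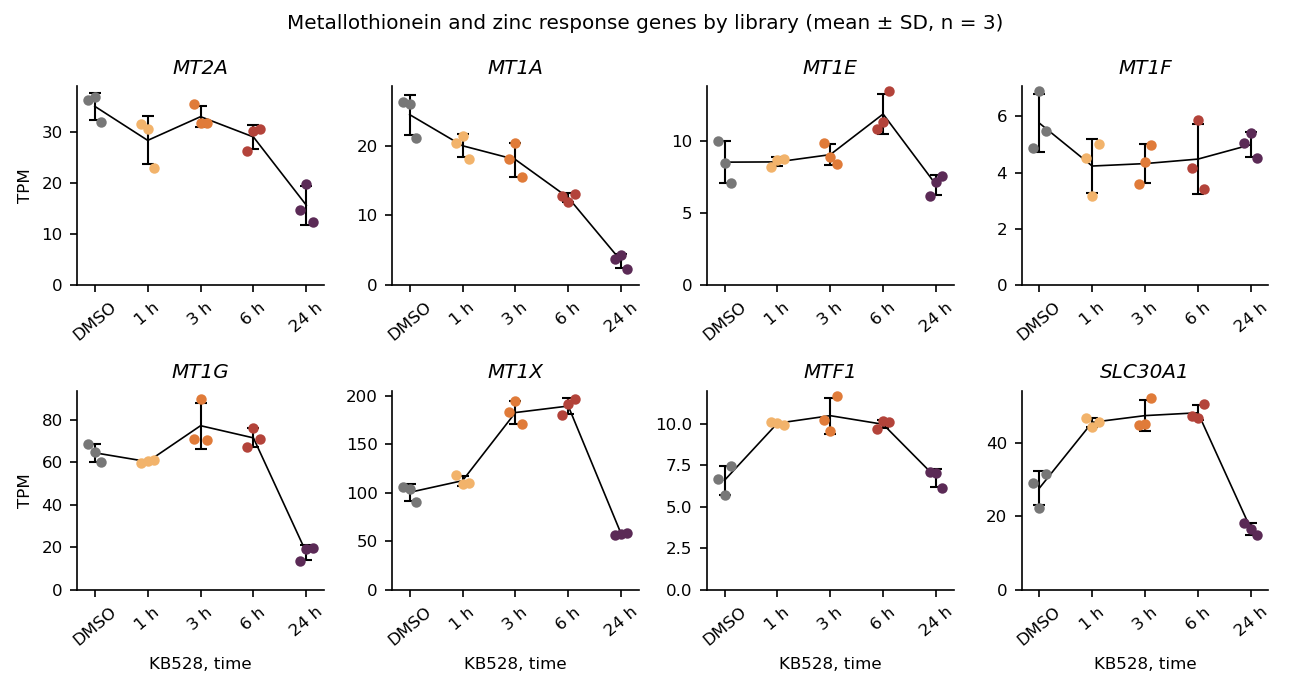
Level of each of the 8 genes in TPM (y axis, starting at 0, a scale per gene) in the DMSO libraries and after 1, 3, 6 and 24 h of KB528 (x axis); points are libraries, bars the mean ± SD of 3, and the line joins the means. MT1X rises from about 100.4 TPM in DMSO to 189.3 TPM at 6 h and is at 57.7 TPM at 24 h, MT1A is lower at each later time, and MT1F stays between 3.15 and 6.90 TPM.

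Differences between groups were tested with limma on log2(TPM + 1) in 1 fit of all 15 libraries, and a gene was counted as changed at a Benjamini-Hochberg adjusted p under 0.05 over the 12002 genes. The labels do not say that the 3 libraries of a group were separate cultures, so a p-value here sets a difference against library-to-library spread alone, and that spread may be technical. DMSO was sampled at a single time, so the effect of KB528 and of hours in culture cannot be told apart. All 4 comparisons with DMSO share the same 3 DMSO libraries. In bulk RNA, a lower level in fewer cells and a lower level in every cell cannot be told apart either.

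Much of the transcriptome moved in this fit, and the counts of members are to be read against that background. Genes higher than in DMSO made up 15%, 24.9%, 44.4% and 56.1% of those tested at 1, 3, 6 and 24 h. Lower genes made up 7.57%, 32%, 24.5% and 15.2% at the same times. The moderated F test over the course called 93.6% of the tested genes, and 7 of the 8 members, all but MT1F. The median log2 fold change over all tested genes was 0.043, -0.042, 0.117 and 0.227 at 1, 3, 6 and 24 h. With median-ratio scaling the medians at 6 and 24 h were -0.03 and 0.057, and with scaling to the ERCC spike-ins, RNAs added to each sample, those at 3 and 6 h were -0.245 and 0.291. The split of higher and lower genes moved with it. At 24 h it was 6738 against 1826 as deposited and 4618 against 3485 with median-ratio scaling. At 1 h the split was 1802 against 908 as deposited and 1852 against 1779 with that scaling, and at 6 h 5327 against 2945 and 3852 against 4590. With spike-in scaling the split at 3 h was 411 against 2523, beside 2991 against 3836 as deposited.

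MTF1 and SLC30A1, the sensor and the exporter, were higher at 1 h, and these were the only members past the threshold at that time. MTF1, SLC30A1 and MT1X were higher and MT1A was lower at 3 h. At 6 h MT1E joined the higher genes, which made 4 members higher and 1 lower. At 24 h no member was higher, and 6 were lower: MT2A, MT1A, MT1E, MT1G, MT1X and SLC30A1. MTF1 at 24 h was 0.03 log2 above DMSO, and MT1F passed the threshold at no time on the deposited scale.

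**Figure D2:**
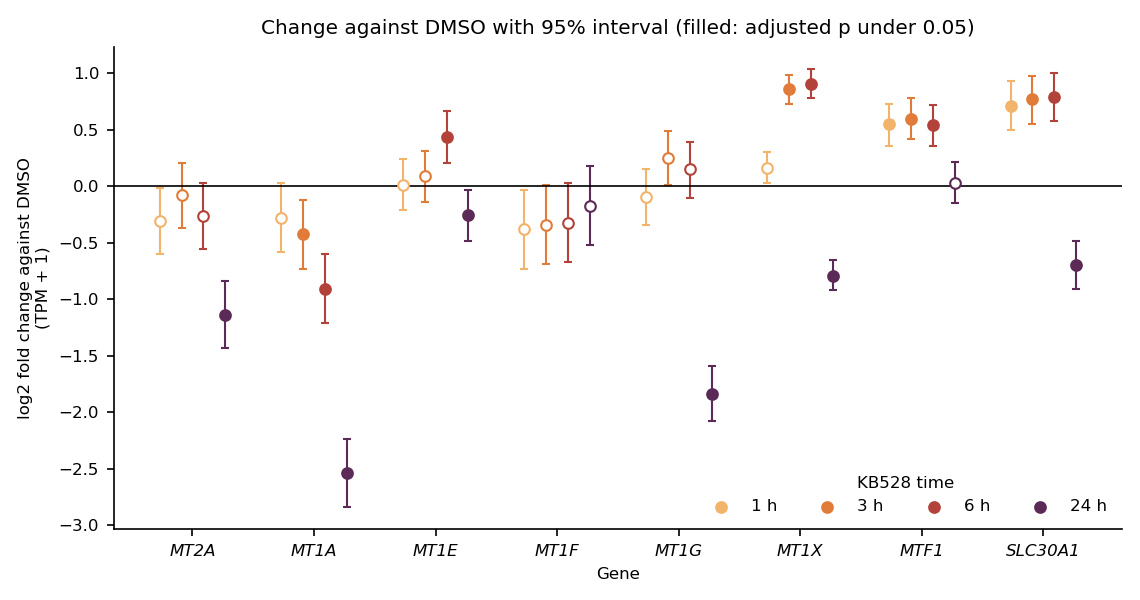
Log2 fold change of each gene against DMSO on the log2(TPM + 1) scale (y axis) after 1, 3, 6 and 24 h of KB528, from lightest to darkest, with the 95% interval of the limma fit; filled points passed an adjusted p under 0.05. SLC30A1 and MTF1 are above 0 from 1 to 6 h, MT1X at 3 and 6 h, and 6 genes are below 0 at 24 h, MT1A furthest at -2.54.

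MTF1 messenger RNA stood at 6.64, 5.68 and 7.45 TPM in the 3 DMSO libraries and at 10.1, 10.05 and 9.91 TPM after 1 h of KB528. The libraries read 10.2, 9.55 and 11.7 TPM at 3 h, 9.67, 10.1 and 10.1 TPM at 6 h and 7.07, 7.05 and 6.12 TPM at 24 h. All 9 libraries from 1 to 6 h lay above all DMSO libraries, and the 24 h libraries overlapped DMSO. The log2 fold changes at 1, 3 and 6 h were 0.55 (SE 0.085, adjusted p 0.000292), 0.60 (adjusted p 2.42e-05) and 0.54 (adjusted p 4.52e-05). The 24 h value was 0.03, with a 95% interval of -0.15 to 0.22. From 6 to 24 h MTF1 fell by 0.50 on the log2 scale (adjusted p 8.75e-05), with all 24 h libraries below all 6 h libraries. With spike-in scaling the values at 1 and 3 h, 0.49 and 0.40, missed the threshold (adjusted p 0.205 and 0.121), and with genes of like length centred the 6 h value was 0.34, still past it, and that at 24 h was -0.27 (adjusted p 6.07e-05).

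SLC30A1, which exports zinc, followed the same course with a deeper end. It was at 29.1, 22.4 and 31.5 TPM in DMSO and at 46.8, 44.3 and 45.8 TPM after 1 h. Its levels were 44.95, 45.1 and 52.3 TPM at 3 h and 47.4, 46.7 and 50.6 TPM at 6 h, then 18.1, 16.7 and 14.97 TPM at 24 h. Every library from 1 to 6 h was above every DMSO library, and every 24 h library was below them. The ratio of the mean TPM to DMSO was 1.65, 1.71, 1.74 and 0.599 from the first time to the last. On the log2 scale these were 0.71 (SE 0.10, adjusted p 0.000112), 0.77 (adjusted p 1.06e-05), 0.79 (adjusted p 4.69e-06) and -0.70 (adjusted p 1.87e-05). The fall from 6 to 24 h was -1.49 (adjusted p 6.82e-09).

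MT1X, the most abundant metallothionein here, was the only one of the 6 whose level passed the threshold as higher at 3 h. Its DMSO libraries read 106.3, 104.3 and 90.6 TPM, and the 1 h libraries 118.3, 109.0 and 109.9 TPM. They were followed by 183.2, 194.1 and 170.4 TPM at 3 h and 179.7, 191.7 and 196.4 TPM at 6 h, and by 56.8, 57.7 and 58.6 TPM at 24 h. The 1 h libraries already lay above DMSO, but the difference of 0.16 had an adjusted p of 0.0701, and centring genes of like length turned it to -0.091, while taking out spike-in and small RNA genes gave 0.18, past the threshold (adjusted p 0.0196). MT1X was higher by 0.86 (SE 0.062, adjusted p 2.01e-08) at 3 h and 0.91 (adjusted p 7.56e-09) at 6 h, and it was lower at 24 h by a log2 fold change of -0.79 (adjusted p 5.51e-08). Its step from 1 to 3 h was 0.69 (adjusted p 3.47e-07), and its step from 6 to 24 h was -1.70 (adjusted p 1.63e-11).

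MT1G, the second metallothionein by level, did not pass the threshold against DMSO before 24 h. It was at 68.5, 64.9 and 60.1 TPM in DMSO, 59.6, 60.4 and 61.0 TPM at 1 h and 71.2, 89.9 and 70.7 TPM at 3 h. At 6 h it was at 67.4, 76.3 and 70.9 TPM, and at 24 h at 13.6, 19.4 and 19.7 TPM. The 3 h libraries were all above DMSO, with 1 library well above the other two, and the 24 h libraries were far below every other group. The difference from DMSO was 0.25 (adjusted p 0.0756) at 3 h and -1.84 (SE 0.11, adjusted p 5.23e-09) at 24 h. The value at 3 h passed the threshold with the replicate number as a block (adjusted p 0.0497), with spike-in and small RNA genes taken out (0.0237) and with voom on reads (0.0182). The step from 1 to 3 h, 0.34 (adjusted p 0.0227), missed the threshold without the 3 h replicate 2 (0.23, adjusted p 0.117), without 1 h replicate 1 or 2 (adjusted p 0.0577 and 0.0518) and with spike-in scaling (0.18, adjusted p 0.594).

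MT1A declined from an early time. Its levels were 26.2, 25.9 and 21.1 TPM in DMSO, 20.4, 21.4 and 18.1 TPM at 1 h and 18.1, 20.4 and 15.5 TPM at 3 h. They were 12.7, 11.9 and 13.0 TPM at 6 h and 3.795, 4.25 and 2.29 TPM at 24 h. From 3 h on, every library was below every DMSO library. Its log2 fold changes at 3, 6 and 24 h were -0.42 (adjusted p 0.0194), -0.91 (adjusted p 4.31e-05) and -2.54 (SE 0.14, adjusted p 1.65e-09), and the mean TPM ended at 0.141 of DMSO. The call at 3 h was lost without DMSO replicate 1 (adjusted p 0.0722), DMSO replicate 2 (0.0633) or 3 h replicate 3 (0.0852), and the value was -0.64 (adjusted p 0.00151) with genes of like length centred. The further decline from 3 to 6 h, -0.48 (adjusted p 0.00956), was -0.095 with spike-in scaling and -0.29 with length centred, neither past the threshold (adjusted p 0.669 and 0.101). The 24 h level rests on 22 to 42 reads per library.

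MT2A, the most widely expressed human metallothionein, passed the threshold as lower only at 24 h in the fit described above. The libraries were at 36.2, 36.8 and 31.9 TPM in DMSO, 31.5, 30.5 and 22.9 TPM at 1 h, 35.4, 31.7 and 31.8 TPM at 3 h, 26.2, 30.1 and 30.6 TPM at 6 h and 14.7, 19.8 and 12.4 TPM at 24 h. The 1 h and 6 h libraries lay below DMSO by differences that missed the threshold, -0.31 (adjusted p 0.122) and -0.26 (adjusted p 0.0996). The 1 h value passed with genes of like length centred (-0.56, adjusted p 0.00882) and with voom (-0.35, adjusted p 0.0394). The 6 h value passed with median-ratio scaling (-0.42, adjusted p 0.0138) and with voom (-0.36, adjusted p 0.0113). It also passed with spike-in and small RNA genes taken out (-0.29, adjusted p 0.048) and with only the compared groups fitted (-0.26, adjusted p 0.0136). At 24 h the log2 fold change was -1.14 (SE 0.14, adjusted p 3.54e-06).

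MT1E moved upward late and then back. DMSO libraries were at 10.0, 8.49 and 7.07 TPM, 1 h libraries at 8.19, 8.67 and 8.77 TPM and 3 h libraries at 9.85, 8.92 and 8.38 TPM. At 6 h the values were 10.8, 11.3 and 13.5 TPM, all above DMSO, and at 24 h they were 6.19, 7.13 and 7.57 TPM, overlapping DMSO. The log2 fold change was 0.44 (SE 0.11, adjusted p 0.00173) at 6 h and -0.25 (adjusted p 0.0446) at 24 h. The 24 h call was lost without DMSO replicate 1 (-0.14, adjusted p 0.243), without DMSO replicate 2, without 24 h replicate 1 or 2, with spike-in scaling (adjusted p 0.309) and with the replicate block (adjusted p 0.0579). Median-ratio scaling gave 0.29 (adjusted p 0.0266) at 6 h and -0.42 (adjusted p 0.00353) at 24 h. From 3 to 6 h MT1E was higher by 0.35 (adjusted p 0.0102), a call lost without 6 h replicate 3 (0.27, adjusted p 0.0607) and with median-ratio scaling (0.21, adjusted p 0.113), while spike-in scaling gave 0.73.

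MT1F, the least abundant of the 6 metallothioneins in DMSO, was at 4.89, 6.90 and 5.50 TPM there. MT1F ranged from 3.15 to 5.87 TPM in the 12 treated libraries. Its log2 fold changes against DMSO were -0.38, -0.34, -0.32 and -0.17 from 1 to 24 h (adjusted p 0.114, 0.0869, 0.0984 and 0.378). Each treated group overlapped DMSO. The 3 h value passed the threshold as lower with spike-in scaling (-0.52, adjusted p 0.0257) and with length centred (-0.56, adjusted p 0.012). The 6 h value passed it without 6 h replicate 2 (-0.49, adjusted p 0.0143) and with median-ratio scaling (-0.45, adjusted p 0.0353). The gene had 40 to 107 reads per library, and its 95% interval at 24 h, -0.52 to 0.18, leaves room for a fall of the size seen for MT1E but not for that of MT1X.

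From 1 to 3 h, 2 members rose, MT1G and MT1X, beside 15.2% of tested genes higher and 31.8% lower. From 3 to 6 h MT1E rose and MT1A fell, beside 42.3% higher and 13.7% lower. This step moved with the scaling: members higher and lower numbered 0 and 2 with median-ratio scaling, 3 and 0 with spike-in scaling and 0 and 3 with voom. All tested genes split 5074 higher against 1648 lower as deposited and 3105 against 3581 with median-ratio scaling. The split was 7362 against 232 with spike-in scaling and 3682 against 3082 with voom. From 6 to 24 h 7 members fell and none rose, beside 41% of tested genes higher and 26% lower. MT1F was the exception. With spike-in scaling the 7 members still fell, while all tested genes split 1640 higher against 2037 lower, beside 4925 against 3122 as deposited. From 1 to 3 h that scaling gave 81 against 2070, beside 1829 against 3816, and median-ratio scaling gave 2783 against 3680.

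The summed TPM of the 6 metallothioneins is less open than single genes to how reads were divided among them, though it still depends on their differing lengths and on reads assigned to genes outside the 6 or dropped. The sum averaged 238.6 ± 19.5 TPM in DMSO (SD, n = 3). It averaged 233.8 ± 8.42 and 324.2 ± 23.9 TPM after 1 and 3 h of KB528, and 318.7 ± 15.2 and 106.2 ± 6.88 TPM after 6 and 24 h. All 3 h and 6 h libraries, from 301.1 to 349.4 TPM, were above all DMSO libraries, from 216.3 to 252.2 TPM. All 24 h libraries, from 100.0 to 113.6 TPM, were below them. The ratios to DMSO were 0.98, 1.36, 1.34 and 0.445. The exact two-sided permutation p was 0.8 at 1 h and 0.1 at the other times, which is the smallest that 3 libraries against 3 can give. With spike-in scaling the ratio at 3 h was 1.16 and the libraries overlapped (exact p 0.4), and at 6 h it was 1.54 (exact p 0.2).

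The make-up of the pool changed as well. MT1X made up 42.1% ± 0.152 of the summed TPM in DMSO (SD, n = 3). Its share was 48.1% ± 1.14, 56.4% ± 0.738, 59.4% ± 0.693 and 54.4% ± 3.22 after 1, 3, 6 and 24 h. The share of MT1A went from 10.2% ± 0.389 in DMSO to 3.94% ± 0.303 at 6 h and 3.24% ± 0.919 at 24 h. MT1G held 27.1% ± 0.769 in DMSO and 16.5% ± 2.65 at 24 h. The shares of the scarce genes MT1E and MT1F were 3.56% and 2.42% in DMSO, 2.80% and 1.34% at 3 h, and 6.56% and 4.70% at 24 h, and that of MT1F was 1.41% at 6 h. In each of these comparisons with DMSO the libraries did not overlap, and the exact permutation p was 0.1, the smallest possible. The share of MT2A was 14.7% in DMSO, 12.1%, 10.2% and 9.08% at 1, 3 and 6 h, each without overlap with DMSO (exact permutation p 0.1), and 14.6% at 24 h (exact permutation p 0.9).

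**Figure D3:**
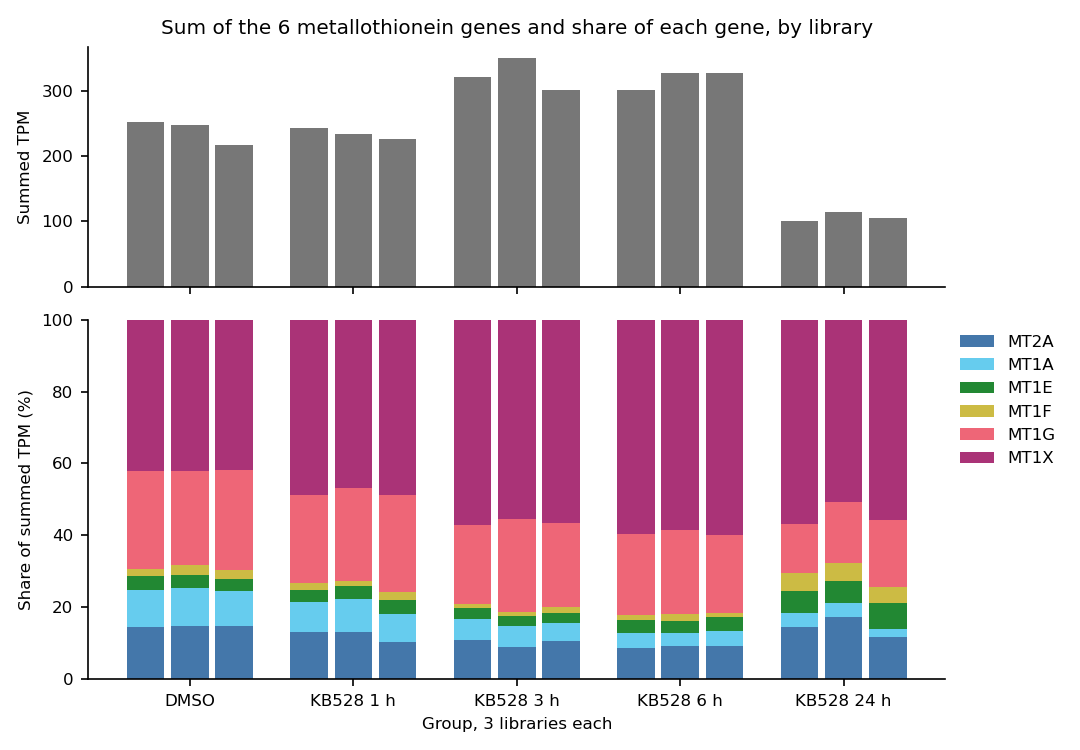
Upper bars give the TPM summed over the 6 metallothioneins and lower bars the percent of that sum held by each gene, in each of the 15 libraries (x axis, 3 per group). The sum lies between 301.1 and 349.4 TPM at 3 and 6 h and between 100.0 and 113.6 TPM at 24 h, and MT1X holds the largest share in every library, from 42.1% on average in DMSO to 59.4% at 6 h.

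The table held 10 further metallothionein entries, 8 of them under the limit for testing, with at most 13 reads and 1.03 TPM in any library. The brain-enriched metallothionein MT3, at 1.77 to 4.34 TPM, was lower at 24 h by -0.52 (adjusted p 0.0126), a call lost without DMSO replicate 1 (adjusted p 0.0652). The pseudogene MT1JP, with at most 27 reads, was lower at 24 h at a log2 fold change of -0.83 (adjusted p 0.000764), or -1.68 with a pseudocount of 0.1. Adding all 10 entries to the sum gave a ratio of 0.448 at 24 h.

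Among the other members of the SLC30A family, most of which move zinc out of the cytosol, 6 were tested. At 1, 3, 6 and 24 h the genes higher than in DMSO numbered 2, 3, 4 and 3, and the lower ones 1, 1, 0 and 0. Over all tested genes, 15%, 24.9%, 44.4% and 56.1% were higher and 7.57%, 32%, 24.5% and 15.2% lower at these times. SLC30A5, a transporter of the secretory pathway, was higher at all 4 times, by 0.25, 0.29, 0.43 and 0.29, though with genes of like length centred the 24 h value was 0.0015 (adjusted p 0.968). SLC30A7, of the Golgi, was higher by 0.42 (adjusted p 0.000526) at 3 h. Both calls at 3 h were lost with spike-in scaling (0.075 and 0.22). So were the calls of SLC30A5 at 1 h (0.2) and at 24 h (0.27, adjusted p 0.324). The calls of SLC30A4 and SLC30A7 at 1 h, SLC30A3 and SLC30A4 at 3 h and SLC30A3 at 6 h were each lost without DMSO replicate 1 and without at least 1 treated library, and that of SLC30A7 at 6 h without DMSO replicate 2. At 24 h, where SLC30A1 was lower, SLC30A3, a vesicle transporter, was higher by 0.99 (adjusted p 2.34e-06) and SLC30A9 by 0.54 (adjusted p 8.97e-07). The median of the 6 was 0.217 at 24 h, close to the 0.227 of all tested genes.

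The SLC39A family moves zinc into the cytosol, and 11 of its genes were tested. Over the 4 times, 0, 1, 3 and 4 of them were higher and 1, 3, 2 and 2 lower. The shares of all tested genes were 15%, 24.9%, 44.4% and 56.1% higher and 7.57%, 32%, 24.5% and 15.2% lower. The single call at 1 h, SLC39A4, was lost without DMSO replicate 1 or 2 and without 1 h replicate 1 or 2. SLC39A10, an importer of the plasma membrane, was lower by -0.48 (adjusted p 8.9e-05) at 3 h and -0.61 (adjusted p 4.68e-06) at 6 h. SLC39A9 was higher by 0.50 (adjusted p 4.13e-06) at 6 h. SLC39A14, which carries zinc and iron, was lower by -0.51 (adjusted p 2e-05) at 24 h, while SLC39A11, SLC39A1 and SLC39A13 were higher by 0.38, 0.35 and 0.33, or by 0.21, 0.17 and 0.15 with median-ratio scaling. These 3 calls were lost with spike-in scaling (adjusted p 0.16, 0.203 and 0.234), as was that of SLC39A10 at 6 h (-0.44, adjusted p 0.0578).

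**Figure D4:**
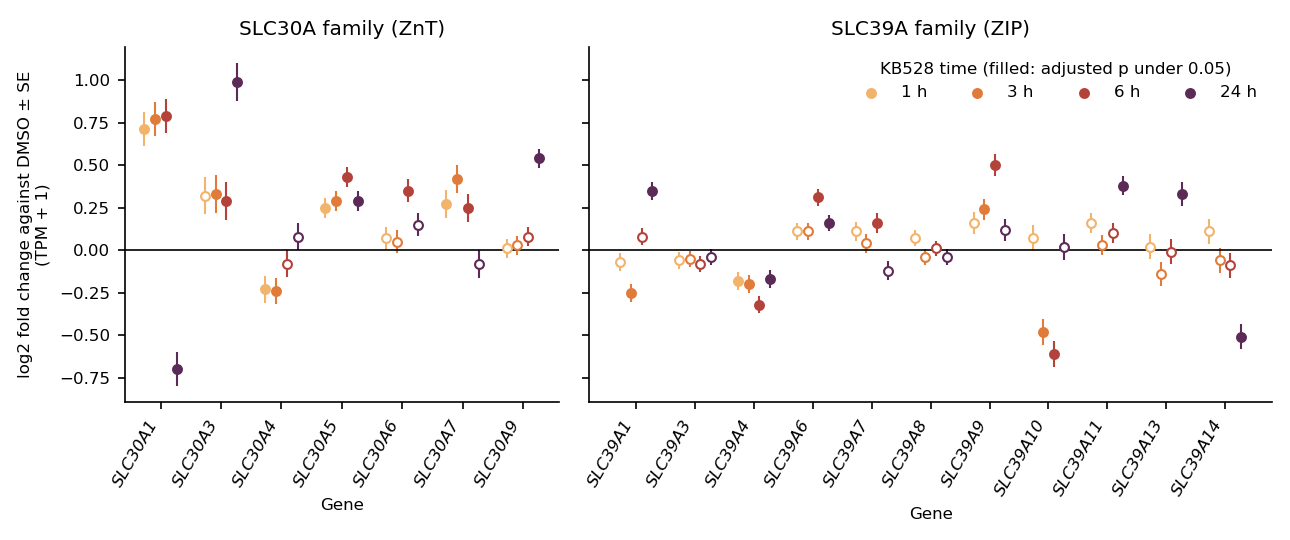
Log2 fold change against DMSO ± SE on the log2(TPM + 1) scale (y axis) of the 7 tested SLC30A and 11 tested SLC39A zinc transporter genes (x axis) at 1, 3, 6 and 24 h, from lightest to darkest; filled points passed an adjusted p under 0.05. SLC30A1 has the largest values of its family at 1, 3 and 6 h and is the only SLC30A gene with a filled point under 0 at 24 h, at -0.70.

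Genes of the response to heavy metals and oxidative stress, which share inducers with the metallothioneins, numbered 14, all tested. In order of time, 2, 0, 7 and 7 were higher and 3, 7, 3 and 2 lower. Beside them, 15%, 24.9%, 44.4% and 56.1% of all tested genes were higher and 7.57%, 32%, 24.5% and 15.2% lower. HMOX1, the enzyme that degrades heme, was higher by 1.64 (adjusted p 6.75e-13) at 6 h and 1.91 (adjusted p 1.84e-13) at 24 h, the time at which 5 of the 6 metallothioneins were lower. The chaperone genes DNAJB1 and HSPA1B were higher by 1.36 and 1.28 at 6 h, the latter uncertain because reads of HSPA1B and of its near-identical copy HSPA1A could be split between them. At 24 h FTH1 and FTL, the ferritin chains that store iron, were at 0.56 and -0.53, both past the threshold, FTH1 being at 0.37 with median-ratio scaling. SLC40A1, the iron exporter, was lower by -1.07 (adjusted p 2.05e-08) at 3 h.

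Of 10 tested genes of copper handling, 1, 1, 4 and 3 were higher and 3, 2, 3 and 2 lower over the 4 times. All tested genes were higher in 15%, 24.9%, 44.4% and 56.1% and lower in 7.57%, 32%, 24.5% and 15.2% of cases. The 4 calls at 1 h, those of SLC31A1, ATOX1, CCS and SCO2, were each lost without DMSO replicate 2 and without 1 h replicate 2. ATP7A, a copper-exporting pump, was lower by -0.67 (adjusted p 1.08e-05) at 3 h. CCS, the copper chaperone of superoxide dismutase, was higher by 0.53 (adjusted p 1.58e-06) at 24 h, or by 0.35 with median-ratio scaling.

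Glucocorticoids are a further known inducer of MT2A, and 6 genes of that response were tested. Over the 4 times 3, 0, 0 and 1 of them were higher and 1, 5, 5 and 3 lower. For all tested genes the shares were 15%, 24.9%, 44.4% and 56.1% higher and 7.57%, 32%, 24.5% and 15.2% lower. Of the 3 genes higher at 1 h, 1, NR3C1, was lost without DMSO replicate 2 and without 1 h replicate 2 or 3. DUSP1, a phosphatase of MAP kinases, was lower by -1.41, -2.23, -2.32 and -2.94 at 1, 3, 6 and 24 h. TSC22D3, also called GILZ, was higher by 0.80 (adjusted p 5.2e-06) at 1 h and lower by -0.84 (adjusted p 4.64e-07) at 24 h. NR3C1, the glucocorticoid receptor, was lower by -0.95 (adjusted p 3.35e-08) at 3 h, when MT2A was at -0.08.

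The 3 tested protein-coding genes on each side of the metallothionein cluster were picked after the cluster's values were seen. At 24 h 3 of these 6 were higher and 1 was lower, beside 56.1% and 15.2% of all tested genes. The values ran from -0.63 for HERPUD1 to 0.86 for BBS2, and all 6 metallothioneins had values below 0. The higher calls of NUDT21 and NLRC5 at 24 h were lost with median-ratio (0.021 and 0.13), spike-in and length-centred scaling, which leaves BBS2. At 6 h 4 neighbours were higher and 2 lower, beside 44.4% and 24.5% of all tested genes. Their values ran from -0.70 for HERPUD1 to 0.37 for BBS2, and the metallothioneins ran from -0.91 for MT1A to 0.91 for MT1X. At that time NUP93 lost its call and turned to -0.029 with median-ratio scaling and -0.052 with length centred, and NLRC5 lost its call with spike-in scaling (-0.20, adjusted p 0.423).

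**Figure D5:**
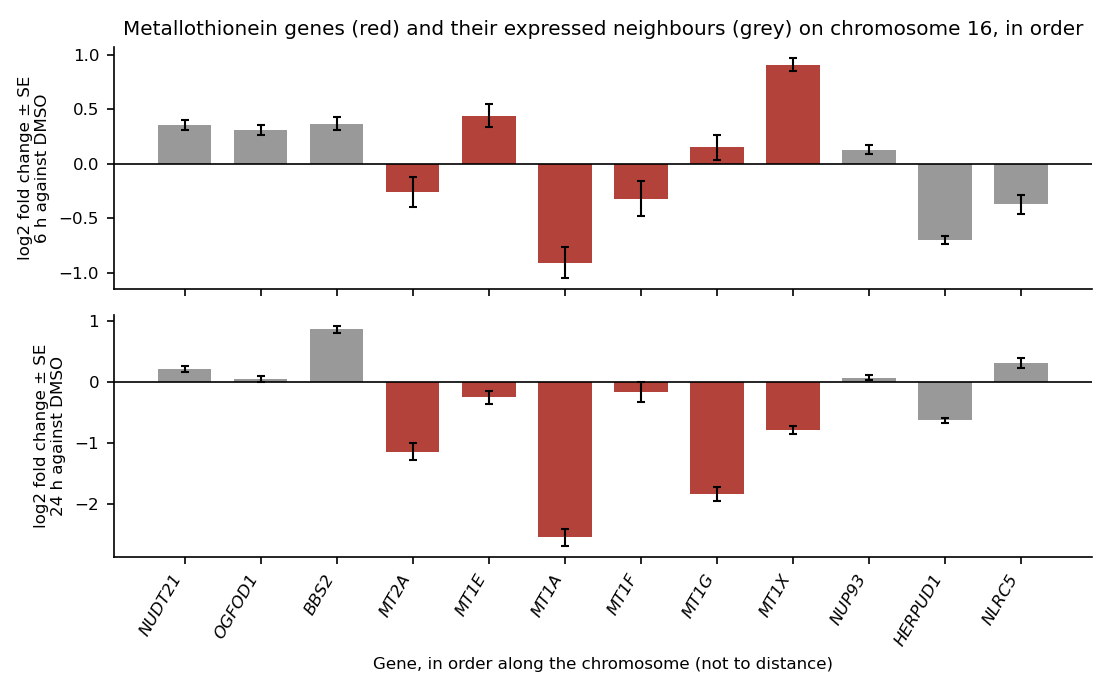
Log2 fold change against DMSO ± SE on the log2(TPM + 1) scale (y axis) at 6 h (upper) and 24 h (lower) for the 6 metallothioneins (red) and 3 tested protein-coding neighbours on each side (grey), in their order along chromosome 16 and not to distance. Red bars point both ways at 6 h, from -0.91 to 0.91, and all point down at 24 h. At 24 h 5 of the 6 grey bars point up, 3 of them called higher, beside 56.1% of all tested genes. The median of all tested genes was 0.227 at that time.

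Among the 8 genes, levels over the 15 libraries ran together to different degrees, as a description that shares the 5 groups and the depth of the libraries. The Pearson correlation of log2(TPM + 1) was 0.925 between MT2A and MT1A, 0.899 between MTF1 and SLC30A1 and 0.889 between MT1X and SLC30A1. Between MTF1 and MT2A it was 0.368, and MT1F had values from -0.52 to -0.047 with the other 7. Outside the set, the 5 tested genes most like MT2A were RUVBL1 (0.932), FDPS (0.931), NDUFS6 (0.929), TIMM13 (0.924) and EEF1D (0.923). These 5 changed less at 24 h, from -0.47 for FDPS to -0.18 for RUVBL1, beside -1.14 for MT2A. The 5 most like SLC30A1 were PDIA3 and HNRNPH1 (0.981 each), TBL2 and ETF1 (0.979 each) and UNG (0.978). Their changes were smaller than those of SLC30A1: from 0.23 to 0.33 at 6 h and from -0.30 to -0.17 at 24 h.

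The libraries held 42714800 to 63476702 reads, with spike-ins at 9.35 to 16.6% of TPM, and 1 read per kilobase of gene length was worth 0.0311 to 0.0458 TPM. Transcripts of the 6 metallothioneins are short, 396 to 506 bases in the lengths behind the TPM, so their counts ranged from 22 reads (MT1A at 24 h) to 2460 (MT1X at 6 h). All 8 plasma cell markers were tested, and the lowest, SLAMF7, had a mean of 1.16 TPM. All 8 markers were lower at 24 h, beside 15.2% of all tested genes. Their summed level went from 3630–3790 TPM in DMSO to 1870–1910 TPM. Of 16 markers of other cell types, 11 were under the limit for testing, and among these NKG7, FCGR3A and HBB were at or near 0. The epithelial genes EPCAM and KRT18 had means of 113 and 129 TPM. CD8A, CD14 and MS4A1, markers of T or NK, myeloid and mature B cells, were also tested, with means of 1.78, 1.01 and 4.16 TPM. The sum of the 16 was 268–272 TPM in DMSO and 218–227 TPM at 24 h. The part of either marker list in the changes of the metallothioneins was not tested.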

How the data were processed

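Messenger RNA of RPMI-8226 cells was sequenced from strand-specific libraries, per the labels' protocols. The submitters' processing notes name STAR, featureCounts and hg19, without versions. The annotation, the strand setting and the treatment of reads that match several genes are not given in the sources used here. The deposited table gives TPM, which the authors scaled so that each library, ERCC spike-ins included, has the same total. Groups follow the sample labels, with 3 libraries in each of 5 groups.

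Whole reads and gene lengths were recovered from the deposited TPM: 100% of 265363 values were whole within 0.02 reads. They gave depth and an added alternative, chosen after seeing the data. The test was limma 3.58.1 in R 4.3.3 on log2(TPM + 1), with a mean per group, a variance trend and Benjamini-Hochberg adjustment over the 12002 genes that averaged 1 TPM or more. The pseudocount understates changes of low genes. Sums and shares were compared with exact two-sided permutation tests. Transcript sequences came from the GENCODE annotation of GRCh38, another build than that of the files. Gene order came from RefSeq, and both were joined by symbol. The code was tested on simulated data. Named genes were all 8 members, up to 4 called genes with the largest change per list and time, and the 5 genes most like MT2A and SLC30A1. The members and lists were chosen with earlier results of these data known. Intervals and read counts cover these libraries only, since reads without molecular identifiers are not independent molecules. A few items are not reported here.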

Additional observations from a re-analysis of the deposited data

Results flagged for a closer look

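Changes between consecutive times were tested as differences themselves in the limma fit, and 11 of them passed an adjusted p of 0.05 among the 8 genes. Of all tested genes, 15.2% were higher and 31.8% lower from 1 to 3 h. The shares were 42.3% and 13.7% from 3 to 6 h, and 41% and 26% from 6 to 24 h. From 1 to 3 h, MT1G was higher by 0.34 and MT1X by 0.69 on the log2(TPM + 1) scale. From 3 to 6 h, MT1A changed by -0.48 and MT1E by 0.35, in opposite directions. From 6 to 24 h the change was -0.87 for MT2A, -1.63 for MT1A, -0.69 for MT1E, -1.98 for MT1G, -1.70 for MT1X, -0.50 for MTF1 and -1.49 for SLC30A1. In each of the 11, all 3 libraries of the later time lay on 1 side of all 3 of the earlier time. The share of all called genes with such a separation was not counted. With 3 libraries per group, no test for an outlying library was made.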

How the results depend on the processing

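Of the 476 checks of a called member value under another setting, 451 kept the call and 25 lost it, and none changed direction. Members called at 1 h numbered 2, against 1 with spike-in scaling, 3 with spike-in and small RNA genes taken out, 3 with voom and 6 when genes of like length were centred in 20 bins (2 higher, 4 lower). Those 4 were MT2A at -0.56, MT1A at -0.53, MT1F at -0.63 and MT1G at -0.35. The calls over all tested genes moved with the setting too. At 1 h they split 1802 higher against 908 lower as deposited and 348 against 123 with spike-in scaling. The split was 2140 against 944 with spike-in and small RNA genes taken out, 2013 against 1703 with voom and 1814 against 1800 with length bins. Members called from 1 to 3 h numbered 2, against 1 without a filter, 1 with spike-in scaling and 1 to 2 when a library was left out. All tested genes split 1829 higher against 3816 lower there, 1799 against 3971 without a filter and 81 against 2070 with spike-in scaling. From 3 to 6 h members called numbered 1 to 2 when a library was left out and 3 with spike-in scaling, length bins or voom. All tested genes split 5074 against 1648 at that step as deposited. The split was 7362 against 232 with spike-in scaling, 3117 against 3721 with length bins and 3682 against 3082 with voom. The ratio of the summed metallothionein TPM to DMSO was 1.16 at 3 h and 1.54 at 6 h with spike-in scaling, and 1.19 at 6 h and 0.39 at 24 h with median-ratio scaling. Of values that had missed the threshold, MT1E at 1 h turned to -0.033 with median-ratio scaling, -0.039 with spike-in scaling, -0.24 with length bins and -0.034 with voom, and ranged from -0.10 to 0.12 when a library was left out. MT1E at 3 h turned to -0.12 with spike-in scaling and -0.13 with length bins, and ranged from -0.028 to 0.20 when a library was left out. MT1X at 1 h was -0.091 with length bins, and MT1G at 6 h was -0.015 with median-ratio scaling. MTF1 at 24 h was -0.13 with median-ratio scaling, -0.27 with length bins (adjusted p 6.07e-05, called lower) and -0.023 with voom, and ranged from -0.054 to 0.12 when a library was left out. Among other named genes, spike-in scaling gave -0.069 for OGFOD1 at 3 h, median-ratio scaling -0.029 for NUP93 at 6 h, and length bins -0.052 for NUP93 at 6 h, -0.054 for FKBP5 and -0.084 for NUDT21 at 24 h. Of the 1530 checks of called values of such genes, 1396 kept the call and 129 lost it without a change of direction. The other 5 changed direction and also lost the call. The cause of these differences was not tested. For samples with the same replicate number, the correlation of their deviations ran from -0.157 to 0.43, with a median of 0.005 over 30 pairs. For samples with different numbers the correlation ran from -0.475 to 0.218, with a median of -0.013 over 60 pairs. With the replicate number as a block, members called numbered 2, 5, 5 and 5 at 1, 3, 6 and 24 h, against 2, 4, 5 and 6 without it. Genes higher and lower over all tested with the block numbered 1982 and 944, 3035 and 3915, 5388 and 2996, and 6786 and 1850. Without it they numbered 1802 and 908, 2991 and 3836, 5327 and 2945, and 6738 and 1826. Centring by length used the lengths behind the TPM. The filter at 5 TPM leaves out MT1F. Depth limits MT1A at 24 h and MT1F most, with as few as 22 and 40 reads.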
